A study of Rattus norvegicus with 66 samples.

Results

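The genes described here are 10 that astrocytes, the star-shaped glial cells of the brain, express at high level: Gfap, S100b, Slc1a2, Slc1a3, Glul, Aqp4, Gja1, Aldh1l1, Aldoc and Sox9. Each was found in the count tables by its gene symbol, each had exactly 1 entry, and together they are 10 of 37777 genes counted. Astrocytes arise from radial glia late in brain development and multiply and mature during the first postnatal weeks in rodents. They take up glutamate at synapses and turn it into glutamine, keep potassium and water in balance, are joined into networks by gap junctions, and release factors that act on synapses. A library made from a whole piece of tissue cannot tell fewer astrocytes from less RNA per astrocyte, so that a level below is the share of all counted reads in the tissue.

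The data are RNA-seq counts of dorsal hippocampus, with a small piece of the neocortex beside it, of 64 Long Evans rat pups on postnatal day (PND) 6, 41 males and 23 females in 13 groups. Dams of the Aroclor 1254 groups (a mixture of polychlorinated biphenyls; Aro5 5 mg/kg and Aro0.5 0.5 mg/kg per day) and of the bisphenol A groups (a monomer of plastics; BPA5 5 mg/kg and BPA0.5 0.5 mg/kg) received the chemical in soy-free chow from before mating until PND 6. Dams of the chlorpyrifos groups (an organophosphate insecticide; CPF3 3 mg/kg and CPF1 1 mg/kg) were injected subcutaneously during gestation and again after birth until PND 6. Pups thus had no direct dosing, and the dams of treated pups were dosed up to the day of dissection. CONF pups came from dams on the same chow with no chemical, and CONSC pups from dams injected with vehicle alone. Males comprised 4 CONF, 5 CONSC, 4 Aro0.5, 4 BPA0.5, 4 CPF1, 6 Aro5, 7 BPA5 and 7 CPF3 pups. Females comprised 5 CONF, 5 CONSC, 5 Aro5, 4 BPA5 and 4 CPF3 pups. The 64 pups came from 44 litters, 18 of which gave pups of both sexes.

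The 66 libraries held 10644138 to 86206550 counts (median 20740650). Both libraries of a pup were summed in the 2 pups that had 2, except in fits that use the form of the library name. The labels of female CONF N4-3x, however, give its libraries different times of dissection, 12.09 and 11.55. Library names take 2 forms in the labels, here called A and B. In males, 9 of 10 control libraries and all 12 low-dose ones had form A, while all 20 high-dose ones had form B. Form and high dose cannot be told apart in males. Female controls were mixed, with A in 5 of 11 libraries and B in 6. The form was not read for any of the 13 high-dose female libraries. Whether exposed and control females differed in form is thus not known. Levels are given as CPM, a gene's counts in every 1000000 counted in that pup, and since transcript lengths were not used, a gene called abundant below is so in counts and not in transcripts. Every astrocyte gene had counts in every pup, from 86 in the pup with the fewest (Slc1a2) to 49984 in the pup with the most (Glul). Counting error was not separated from the spread between pups.

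**Figure D1:**
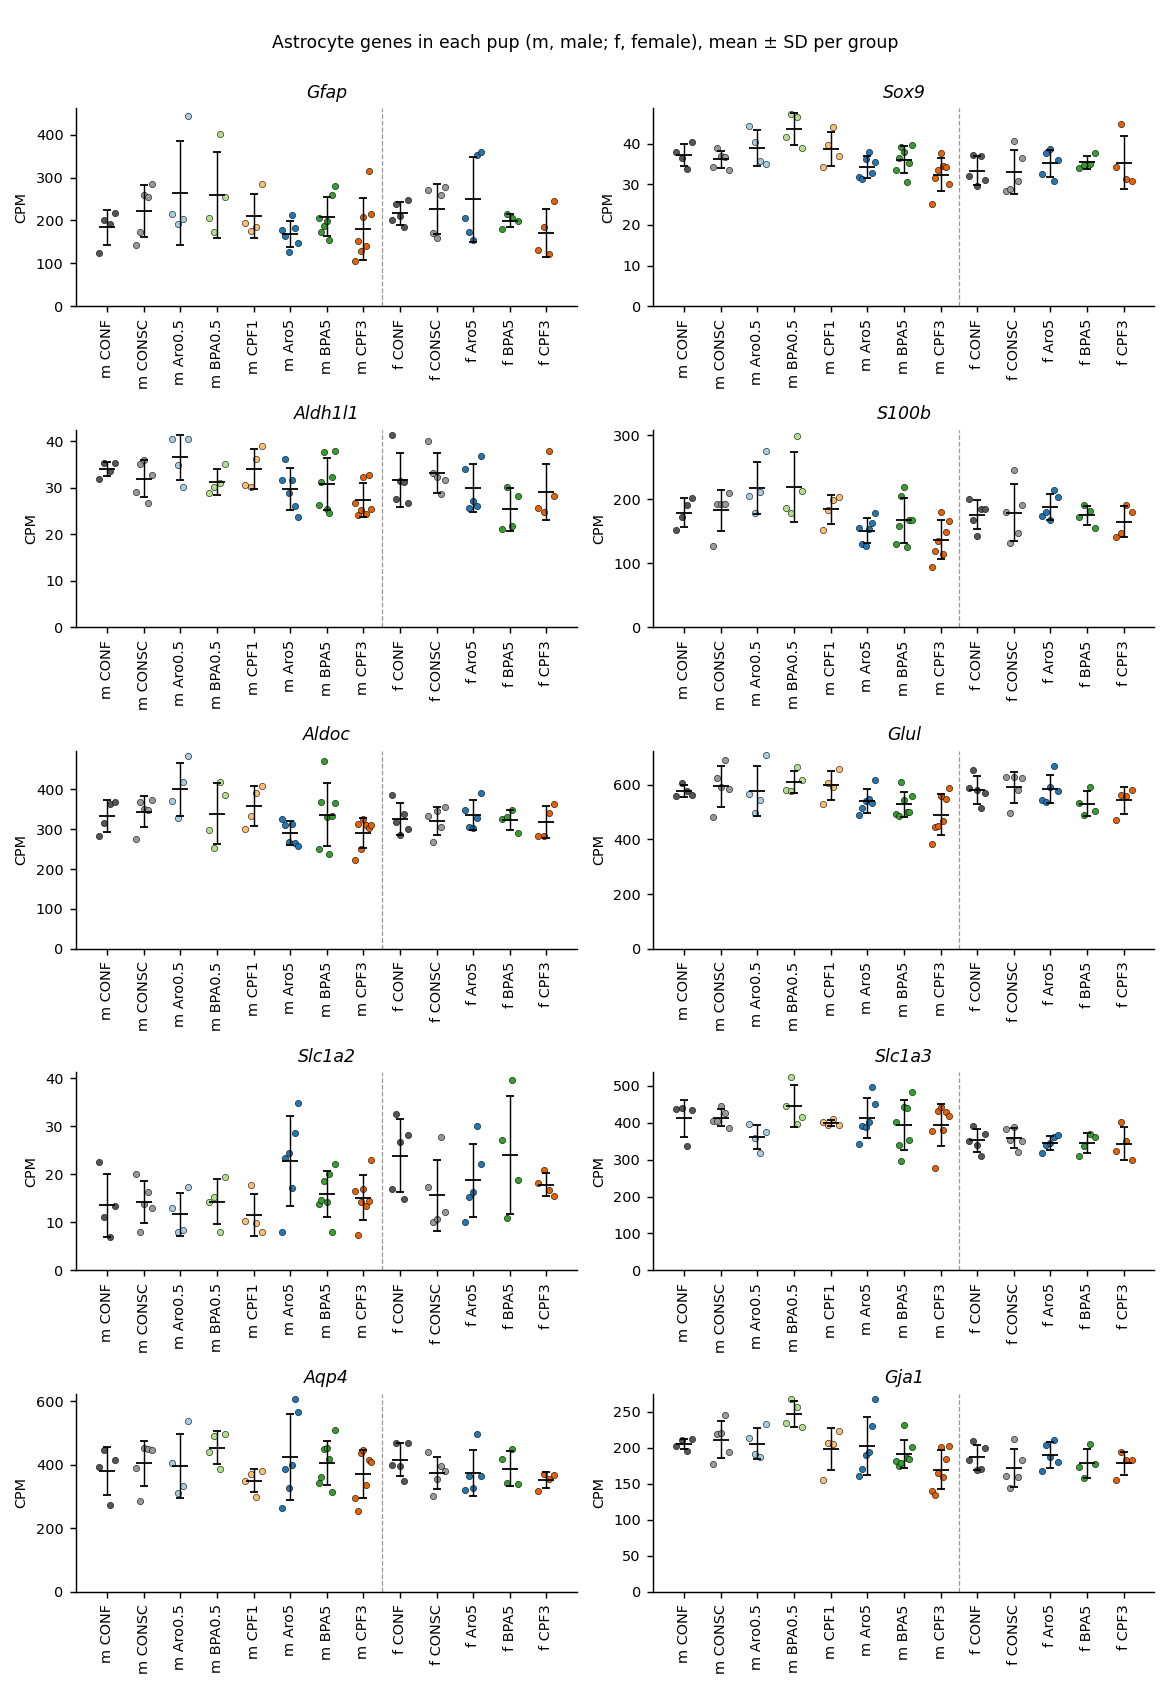
Level of each of the 10 astrocyte genes (CPM, vertical axis starting at 0) in each of the 64 pups, by group along the horizontal axis. Points are pups, horizontal lines group means and vertical lines SD. The points of every treated group overlap those of the controls of the same sex.

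Gfap encodes the intermediate filament of astrocytes, whose expression grows with maturation and in reactive states. It ranged over the 64 pups from 104 to 445 CPM with a median of 199 CPM. Group means lay between 169 ± 30.1 CPM (SD, n = 6) in male Aro5 and 263 ± 121 CPM (SD, n = 4) in male Aro0.5. The high mean of Aro0.5 came with pups at 191, 202, 216 and 445 CPM, and the last of these pups, 98-8y, was the highest of all 64. Male controls lay at 125, 191, 201 and 218 CPM in CONF and at 143, 174, 254, 259 and 284 CPM in CONSC. The CONF and CONSC ranges overlapped, and male Aro0.5 overlapped both.

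S100b encodes a calcium-binding protein that astrocytes contain and release. Its level ranged from 95.2 to 299 CPM with a median of 179 CPM, and the ratio of the highest to the lowest group mean, 1.6, was above that of 8 of the other members. Male CPF3 pups had the lowest mean, 137 ± 30 CPM (SD, n = 7), and male BPA0.5 pups the highest, 219 ± 54.8 CPM (SD, n = 4). Aldoc encodes the brain form of the glycolytic enzyme aldolase, which is enriched in astrocytes, and ranged from 222 to 483 CPM with a median of 326 CPM. Its group means ran from 290 ± 38.5 CPM (SD, n = 7) in male CPF3 to 400 ± 66.8 CPM (SD, n = 4) in male Aro0.5. As shown further down, these were the 2 genes of the 10 whose levels followed each other most closely over pups, and for that reason the 250 bases before the start of each are printed. The sequences are from RefSeq's table of the rat build GRCr8, written 5′ to 3′ on the strand of the gene. They lie at chr20:12381082-12381331 on the minus strand for S100b and at chr10:63715294-63715543 on the plus strand for Aldoc. Capitals mark CANNTG, the E-box that basic helix-loop-helix factors recognize, and TTGGCA, a half-site of the nuclear factor I family.
S100b: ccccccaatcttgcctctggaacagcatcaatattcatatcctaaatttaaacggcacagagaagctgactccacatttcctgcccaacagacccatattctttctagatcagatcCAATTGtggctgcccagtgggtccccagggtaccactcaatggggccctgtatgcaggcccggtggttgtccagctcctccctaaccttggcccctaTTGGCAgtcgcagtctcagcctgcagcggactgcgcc
Aldoc: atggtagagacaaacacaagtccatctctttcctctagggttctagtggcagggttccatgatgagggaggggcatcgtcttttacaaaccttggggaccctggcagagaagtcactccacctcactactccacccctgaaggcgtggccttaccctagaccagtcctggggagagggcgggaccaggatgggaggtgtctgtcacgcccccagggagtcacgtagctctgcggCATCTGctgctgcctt
The S100b window holds an E-box 134 to 129 bases and TTGGCA 37 to 32 bases before the start, and the Aldoc window an E-box 16 to 11 bases before it. Of the 10 genes 9 had a window in the table, and Sox9 had none. These 9 had 14 windows, some of them overlapping, and a gene with several windows has more chances of a match. TTGGCA, searched on both strands, was in windows of 3 of the 9 (S100b, Slc1a3 and Glul). By windows it was in 5 of the 14 and in 12% of all 33469 windows of the table. CANNTG was in windows of 7 of the 9, by windows in 11 of the 14 and in 65.5% of all. TTCNNNGAA, the STAT site, was in none of the 9 and in 7.67% of all, and TATAAA, the TATA box, in none of the 9 and in 12.9% of all. A match is a description of these letters and not evidence of binding. The S100b window had 54.8% and the Aldoc window 58% G or C, against a median of 51.2% over all windows.

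Slc1a2 and Slc1a3 encode the glial glutamate transporters GLT-1 and GLAST, which clear glutamate from the synaptic cleft. GLAST prevails in early development, while GLT-1 grows later and becomes the main transporter of the mature forebrain. Slc1a2 was the most variable of the 10 between pups, from 6.99 to 39.6 CPM with a median of 15.9 CPM, and its coefficient of variation within groups had a median of 37.7%. Its group means ran from 11.5 ± 4.34 CPM (SD, n = 4) in male CPF1 to 24.1 ± 12.3 CPM (SD, n = 4) in female BPA5, where the pups had 10.9, 18.7, 27.1 and 39.6 CPM. Slc1a3 varied far less, from 278 to 524 CPM with a median of 387 CPM and a median coefficient of variation of 9.11% within groups. Its group means ran from 343 ± 44.7 CPM (SD, n = 4) in female CPF3 to 446 ± 56.1 CPM (SD, n = 4) in male BPA0.5. Glul encodes glutamine synthetase, which turns the glutamate taken up into glutamine, and ranged from 382 to 706 CPM with a median of 563 CPM. Its group means ran from 491 ± 74.6 CPM (SD, n = 7) in male CPF3 to 609 ± 40.6 CPM (SD, n = 4) in male BPA0.5, and it had the smallest median coefficient of variation of the 10, 8.76%.

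Aqp4 encodes the water channel of astrocytic endfeet around vessels. It ranged from 255 to 605 CPM with a median of 388 CPM, and from 349 ± 37.1 CPM (SD, n = 4) in male CPF1 to 453 ± 51.9 CPM (SD, n = 4) in male BPA0.5. Gja1 encodes connexin 43, the main gap junction protein between astrocytes. It ranged from 135 to 268 CPM with a median of 190 CPM, and from 169 ± 27.3 CPM (SD, n = 7) in male CPF3 to 247 ± 18.5 CPM (SD, n = 4) in male BPA0.5.

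Aldh1l1 encodes a folate enzyme that is widely used to mark astrocytes. It ranged from 21.2 to 41.5 CPM with a median of 31.2 CPM, and from 25.4 ± 4.58 CPM (SD, n = 4) in female BPA5 to 36.5 ± 4.94 CPM (SD, n = 4) in male Aro0.5. Sox9 encodes a transcription factor that specifies glia and stays on in astrocytes. It ranged from 25.1 to 47.4 CPM with a median of 35.6 CPM, and from 32.4 ± 4.02 CPM (SD, n = 7) in male CPF3 to 43.6 ± 3.96 CPM (SD, n = 4) in male BPA0.5. Male CPF3 thus had the lowest group mean of Gja1, S100b, Aldoc, Sox9 and Glul, and male BPA0.5 the highest of Aqp4, Slc1a3, Gja1, S100b, Sox9 and Glul. With the 13 group means of each gene in order, 112 of the 120 steps between neighbours were smaller than the SD of both groups. Sorting makes steps between neighbours small, so that their size does not show whether groups differ. The step to male BPA0.5 exceeded both SDs in Gja1 (from male CONSC) and Sox9 (from male Aro0.5). The extremes over the 64 pups were shared by few animals. CPF3 male 35-5y was the lowest of all pups for 5 of the genes and CPF3 male 36-3y for 3, whereas Aro0.5 male 98-8y and BPA0.5 male 72-4y were each the highest for 3.

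The main comparison of the study was between offspring exposed to the high dose of each chemical and control offspring of the same sex, with CONF and CONSC combined. The 3 comparisons in males share their 9 controls, and so do the 3 in low-dose males. None of the 10 astrocyte genes passed an adjusted p of 0.05 in edgeR's quasi-likelihood test in any of the 19 comparisons made, and none passed in DESeq2. In high-dose males 0.195% of the 16393 genes tested passed with Aro5, 0.189% with BPA5 and 0.159% with CPF3. At an unadjusted p under 0.05, where 11.8% of all genes lay with Aro5, 9.1% with BPA5 and 12.6% with CPF3, 1, 0 and 5 of the 10 lay.

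**Figure D2:**
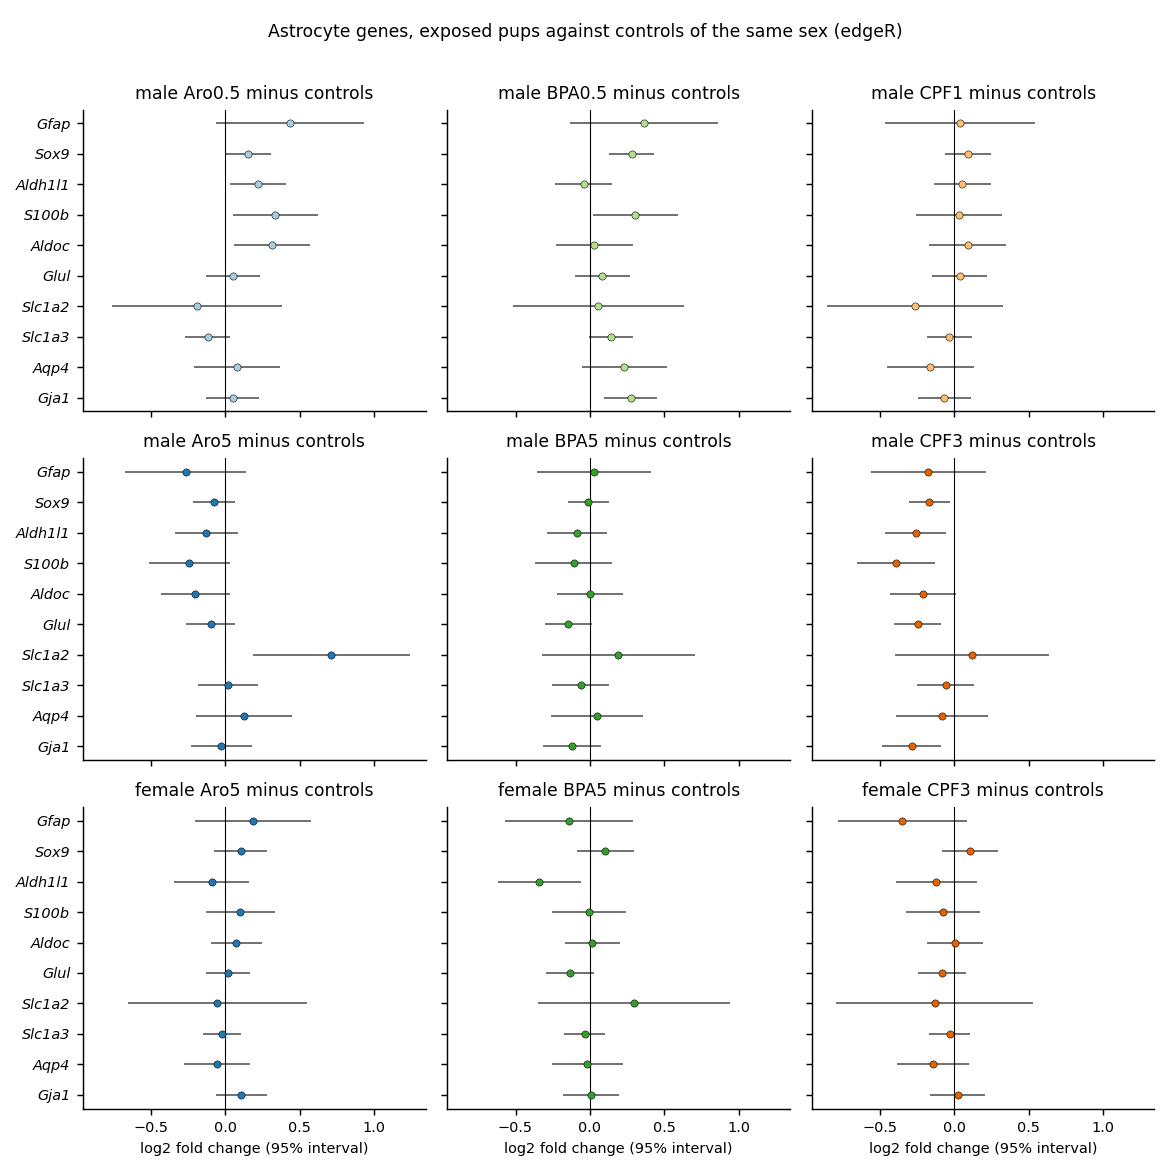
Log2 fold change of each of the 10 astrocyte genes against the combined controls of the same sex (horizontal axis), with 95% confidence intervals of edgeR's fit, for the 3 low-dose and 3 high-dose groups of males and the 3 high-dose groups of females. None of the values has an adjusted p under 0.05, and in CPF3 males 9 of 10 lie below 0.

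In CPF3 males the level of 9 of the 10 genes was nominally below controls, with a median log2 fold change of -0.19 against 0.0029 over all genes tested. The 5 at an unadjusted p under 0.05 were all on the lower side, where 7.26% of all genes lay. They were S100b, Gja1, Glul, Aldh1l1 and Sox9. Slc1a2 was the gene with a positive value, 0.12 ± 0.25 (log2, SE).

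S100b was at 95.2, 115, 120, 135, 150, 166 and 181 CPM in the 7 CPF3 males. In the 9 male controls the lowest was 128, the median 192 and the highest 210 CPM. All 7 exposed pups lay under the mean of the controls, but the ranges overlapped. The log2 fold change was -0.39 ± 0.13 (SE; edgeR, adjusted p = 0.26). Gja1 was at 135, 140, 159, 165, 184, 201 and 203 CPM in CPF3 males against 178 to 246 CPM with a median of 210 CPM in controls. Here too all 7 lay under the mean of the controls, with 4 below the lowest control, and the log2 fold change was -0.29 ± 0.10 (SE; edgeR, adjusted p = 0.264).

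Glul was at 382, 444, 448, 468, 546, 559 and 587 CPM in CPF3 males against 481 to 690 CPM with a median of 582 CPM in controls. It gave -0.25 ± 0.08 (log2, SE; edgeR, adjusted p = 0.246), and 6 of 7 pups were under the control mean. Aldh1l1 was at 24.1, 24.5, 25.3, 25.5, 26.8, 32.3 and 32.8 CPM against 26.8 to 36.0 CPM with a median of 33.7 CPM in controls. All 7 were under the control mean and the log2 fold change was -0.26 ± 0.10 (SE; edgeR, adjusted p = 0.323). Sox9 was at 25.1, 30.0, 31.6, 33.5, 34.3, 34.5 and 37.7 CPM against 33.6 to 40.5 CPM in controls, with -0.17 ± 0.07 (log2, SE; edgeR, adjusted p = 0.337). Aldoc, with all 7 pups under the control mean as well, gave -0.21 ± 0.11 (log2, SE; edgeR, adjusted p = 0.424).

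**Figure D3:**
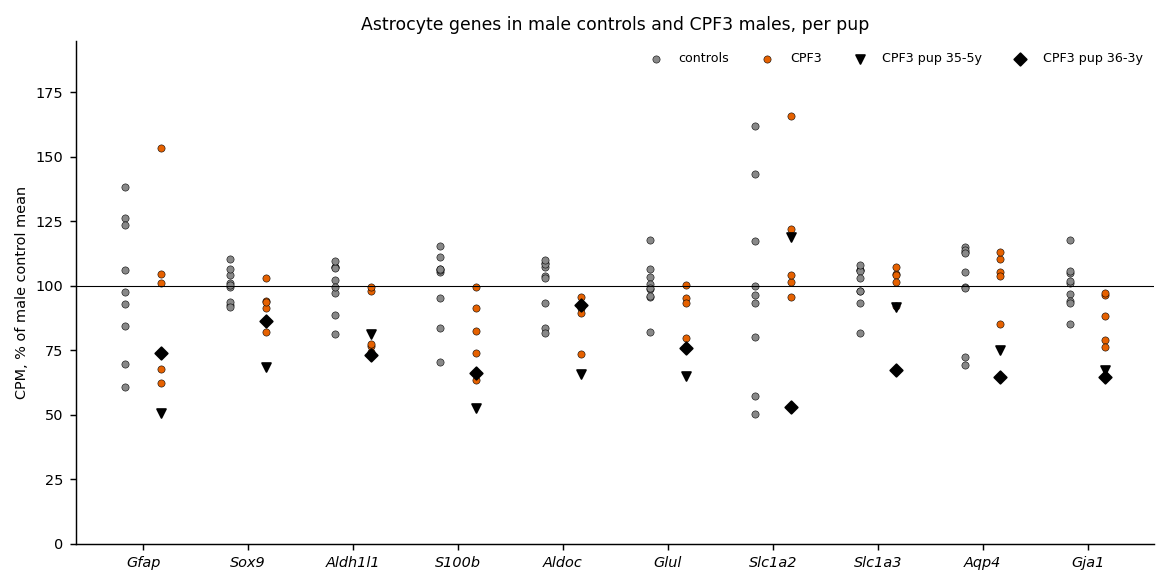
Level of each of the 10 astrocyte genes in the 9 male control and 7 CPF3 male pups, as a percentage of the mean of the controls (vertical axis starting at 0, line at 100%). Points are pups, and the 2 pups lowest for most genes, 35-5y and 36-3y, are marked. In Aldh1l1, Gja1, S100b and Aldoc all 7 CPF3 pups lie under 100%, and in every gene the groups overlap.

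These values rest in part on the pups 35-5y and 36-3y. Without both, an alternative chosen after the data were examined, 2 of the 10 genes had an unadjusted p under 0.05 in edgeR, as had 5.85% of all 16524 genes then tested. None had an adjusted p under 0.05, 7 of 10 were nominally lower and the median was -0.13. With the form of the library name as a covariate, which leaves a single control library of form B to carry the comparison, S100b gave -0.16 and Gja1 -0.13. A further list of 30 astrocyte genes went the same way in CPF3 males, with 25 of 30 nominally lower, a median of -0.17, 10 at an unadjusted p under 0.05 and none at an adjusted p under 0.05 in edgeR. The 2 with the most counts, Apoe, the main lipid carrier of the brain, and Cst3, a secreted protease inhibitor, gave 0.21 (adjusted p = 0.685) and 0.0031 (adjusted p = 0.994). Ndrg2, an astrocyte-enriched gene of the NDRG family, gave -0.38 (adjusted p = 0.113) and Mlc1, a membrane protein of astrocytic endfeet, -0.26 (adjusted p = 0.16), both in edgeR. Both were among the genes that most closely followed the mean of the 10 over pups.

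Markers of microglia and of the oligodendrocyte lineage also lay to 1 side in this comparison without passing the test. Microglia markers were nominally lower for 9 of 9, with a median of -0.25, and their summed level was 87.7 to 150 CPM in CPF3 males against 105 to 179 CPM in male controls. Markers of the oligodendrocyte lineage were nominally lower for 10 of 10, with a median of -0.17, and summed to 602 to 918 CPM against 694 to 970 CPM. Markers of neocortical layers had a median of 0.38 with 5 of 8 nominally higher, and summed to 575 to 1023 CPM against 456 to 837 CPM. Among those with the most counts were Csf1r (-0.33) of microglia, Cnp (-0.29) and Pdgfra (-0.20) of the oligodendrocyte lineage, and Bcl11b (-0.37) of neocortex. Bcl11b thus lay against the median of its list. No marker of these 3 lists had an adjusted p under 0.05 in edgeR or was at 0 in a group, and their part in the values of the astrocyte genes was not tested. Genes of reactive astrocytes, by contrast, had a median of 0.03 with 6 of 17 nominally lower, and factors that astrocytes release to synapses a median of 0.07 with 3 of 9 nominally lower.

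In Aro5 males Slc1a2 was the gene at an unadjusted p under 0.05. The 6 Aro5 males had 7.98, 17.1, 23.4, 24.4, 28.6 and 34.9 CPM. The 4 CONF males had 6.99, 11.1, 13.4 and 22.5 CPM and the 5 CONSC males 7.96, 13.0, 13.9, 16.3 and 19.9 CPM. Thus 4 of the 6 exposed pups lay above every control and 1 near the lowest control. The log2 fold change was 0.71 ± 0.26 (SE; edgeR, adjusted p = 0.277). The low pup, 108-1y, was dissected at 15.45 (clock time), after all other Aro5 males and all male controls. When pups dissected outside 10.30 to 13.20, 11 of the 64 and here 108-1y, Aro5 male 117-4y and 3 CONSC males, were left out, the value was 1.15 and passed the threshold (edgeR, adjusted p = 0.0315). Of the Aro5 males left, 120-1y and 120-2y share a litter, and 120-2y had the most Slc1a2 (34.9 CPM). The CONSC males left out included 10-2y, the CONSC male with the most (19.9 CPM). With all pups and the form of the library name as a covariate, the log2 fold change of Slc1a2 was 0.21. A single control library of form B then carries the comparison, that of N2-2y, the male control pup with the most Slc1a2 (22.5 CPM). In female controls, where both forms occur, Slc1a2 was higher by 0.54 ± 0.31 (log2, SE) in libraries of form B than of form A (edgeR, adjusted p = 0.367). Libraries were taken singly there, so that pup N4-3x was in both forms and counted as independent in each. In this comparison of forms, none of the 10 passed, or had an unadjusted p under 0.05, in edgeR, against 1.43% and 18.7% of 16577 genes. Form and control type were not balanced in these libraries, and Slc1a2 differed by -0.63 (log2, CONSC minus CONF) between control types in females. In the 2 pups with a library of each form, the Slc1a2 level of form B over form A was 1.15 in N4-3x and 0.786 in N2-2y.

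Over the 10 genes, 7 were nominally lower in Aro5 males and 7 in BPA5 males, with medians of -0.09 and -0.04 against -0.0016 and 0.0076 over all genes. S100b gave -0.24 ± 0.13 (log2, SE; edgeR, adjusted p = 0.491) with Aro5 and Glul -0.14 ± 0.08 (adjusted p = 0.568) with BPA5. Between the high doses in males no gene of the 10 passed, and none of all 16393 genes did (0% with Aro5 against BPA5, 0% with Aro5 against CPF3 and 0% with BPA5 against CPF3). At an unadjusted p under 0.05 in edgeR, Aro5 exceeded CPF3 in Slc1a2 (0.59, log2) and Gja1 (0.26), 2 of 10 against 4.17% of all genes. BPA5 exceeded CPF3 in S100b (0.28) and Sox9 (0.16), 2 of 10 against 2.7% of all. Aro5 and BPA5 differed at that level in 0 of 10 against 4.4% of all. For Slc1a2, the most variable gene, the interval of the difference between Aro5 and BPA5 ran from -0.04 to 1.08 and that between Aro5 and CPF3 from 0.03 to 1.15.

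At the low dose, most of the astrocyte genes were nominally higher in 2 of the 3 groups of males. BPA0.5 gave a median of 0.19 over the 10 against -0.0014 over all genes, with 9 of 10 nominally higher, and Aro0.5 a median of 0.12 with 8 of 10 nominally higher. In edgeR 0.0434% of 16139 genes passed with BPA0.5, 0.124% with Aro0.5 and 0% with CPF1, and none of the 10 in any. At an unadjusted p under 0.05, all on the higher side, lay 3 of 10 with BPA0.5 and 4 of 10 with Aro0.5, against 3.09% and 9.55% of all genes that were higher at that level. In both directions 8.58% and 18.5% of all genes lay there.

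Sox9 had 39.0, 41.7, 46.5 and 47.4 CPM in the 4 BPA0.5 males against 33.6 to 40.5 CPM with a median of 36.7 CPM in the 9 controls. Of the 4 pups 3 were above the highest control, and the log2 fold change was 0.28 ± 0.07 (SE; edgeR, adjusted p = 0.276). Gja1 had 229, 234, 256 and 268 CPM, all above the mean of the controls and 2 above the highest of them, with 0.27 ± 0.09 (log2, SE; edgeR, adjusted p = 0.413). S100b had 179, 186, 213 and 299 CPM in BPA0.5 and 179, 205, 211 and 276 CPM in Aro0.5. Its values of 0.30 ± 0.14 and 0.33 ± 0.14 (log2, SE; edgeR, adjusted p = 0.557 and 0.212) rested in part on the highest pup of each group, and were 0.11 without 73-4y and 0.18 without 98-8y. In Aro0.5 males Aldoc had 327, 371, 419 and 483 CPM, with 0.31 ± 0.12 (log2, SE; edgeR, adjusted p = 0.201; 0.19 without 98-8y), and Aldh1l1 30.3, 34.9, 40.5 and 40.5 CPM, with 0.22 ± 0.09 (adjusted p = 0.214). Aro0.5 males also differed from controls in regional markers, all in edgeR with none at an adjusted p under 0.05. Thalamus markers had a median of 0.56 with 7 of 8 higher, and summed to 888 to 1501 CPM against 579 to 1509 CPM. Neocortical markers had a median of -0.47 with 7 of 8 lower, and summed to 356 to 571 CPM against 456 to 837 CPM. Their part in the values of the astrocyte genes was not tested. In BPA0.5 males too, markers of other cells lay to a side with none at an adjusted p under 0.05 in edgeR. Microglia markers had a median of 0.11 with 8 of 9 higher and summed to 145 to 180 CPM against 105 to 179 CPM. Radial glia genes had a median of 0.10 with 9 of 10 higher, neocortical markers -0.22 with 6 of 8 lower and choroid plexus markers -0.17 with 8 of 9 lower, and their part was not tested either. In CPF1 males the median was 0.03 against 0.01 over all genes, with 6 of 10 nominally higher, and 0 of 10 had an unadjusted p under 0.05, against 2% of all genes.

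In females none of the 10 genes and none of all 16992 genes passed in edgeR (0% with Aro5, 0% with BPA5 and 0% with CPF3). At an unadjusted p under 0.05 lay 0, 1 and 0 of the 10, against 3.23%, 4.08% and 8.79% of all. The gene was Aldh1l1 with BPA5, at 21.2, 21.8, 28.3 and 30.3 CPM against 26.9 to 41.5 CPM with a median of 31.6 CPM in the 10 female controls, which gave -0.34 ± 0.13 (log2, SE; edgeR, adjusted p = 0.925). In CPF3 females 7 of the 10 were nominally lower, with a median of -0.08 against -0.01 over all genes. S100b and Gja1, the lowest in CPF3 males, were at 141, 147, 181 and 191 CPM with -0.08 ± 0.12 and at 155, 182, 182 and 193 CPM with 0.02 ± 0.09 (log2, SE). Other genes had the more negative value in females, such as Gfap with -0.35 ± 0.21 against -0.18 ± 0.19 in males, and Aqp4 with -0.14 ± 0.12 against -0.08 ± 0.15 (log2, SE). The difference between the sexes was tested as an interaction of sex and treatment. The library form of the exposed females is not known, while all high-dose males had form B. For CPF3 it was 0.30 ± 0.14 for Gja1, 0.27 ± 0.11 for Sox9 and 0.31 ± 0.18 for S100b (log2, female effect minus male effect, SE; edgeR, adjusted p = 0.872 for each). None of the 10 passed in any of the 3 interactions in edgeR, where 0.0984% of 17282 genes passed with Aro5, 0.0405% with BPA5 and 0.0463% with CPF3. At an unadjusted p under 0.05 lay 0, 0 and 2 of the 10, against 8.92%, 2.79% and 5.6% of all.

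The sexes themselves were compared in control pups. This was the comparison with the most genes past the threshold, 27.1% of 17282 in edgeR, with 37.5% at an unadjusted p under 0.05. None of the 10 astrocyte genes passed, and 3 had an unadjusted p under 0.05. Slc1a3 had its lowest, median and highest level at 309, 353 and 391 CPM in 10 female controls and at 337, 426 and 445 CPM in 9 male controls. The log2 difference, female minus male, was -0.18 ± 0.07 (SE; edgeR, adjusted p = 0.0533). Gja1 had 144, 176 and 211 CPM in females against 178, 210 and 246 CPM in males, with -0.19 ± 0.08 (log2, SE; edgeR, adjusted p = 0.0694). Slc1a2 had 10.1, 17.1 and 32.5 CPM in females against 6.99, 13.4 and 22.5 CPM in males, with 0.53 ± 0.25 (log2, SE; edgeR, adjusted p = 0.117). Slc1a3 and Gja1 thus were nominally lower and Slc1a2 nominally higher in females, with overlapping ranges in all 3 genes.

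Slc1a3 and Gja1 stood close to the threshold, and small changes took each past it. With library totals alone for scaling they gave -0.21 (edgeR, adjusted p = 0.0286) and -0.22 (adjusted p = 0.0366). Without the male CONF pup N4-7y Slc1a3 gave -0.21 (adjusted p = 0.0282), and without the male CONSC pup 10-2y Gja1 gave -0.22 (adjusted p = 0.0432). With controls of form A alone the values were -0.14 for Slc1a3 and -0.19 for Gja1 (adjusted p = 0.195). The other 7 genes lay between -0.11 ± 0.07 for Sox9 and 0.14 ± 0.17 for Gfap (log2, SE), and the interval of S100b ran from -0.22 to 0.22.

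Some other astrocyte genes passed between female and male controls, as did 27.1% of all 17282 genes. Such calls were thus not particular to astrocyte genes. Of the list of 30, 6 were higher and 1 lower in females at an adjusted p under 0.05 in edgeR. Apoe was higher by 0.96 ± 0.16 (log2, SE; adjusted p = 1.91e-05). Id3, an inhibitor of basic helix-loop-helix factors, was higher by 0.85 (adjusted p = 2.24e-05), Cst3 by 0.40 (adjusted p = 0.000388), Hepacam, an adhesion protein of endfeet, by 0.29 (adjusted p = 0.00722) and Fgfr3, a growth factor receptor, by 0.24 (adjusted p = 0.00982). Slc39a12, a zinc transporter, was lower, with -0.24 (adjusted p = 0.0428). Among factors released to synapses, Bcan, a proteoglycan of the matrix, was higher (0.48) and Gpc4, a glypican, lower (-0.19) in females, 2 of 9. Among the 20 listed genes of reactive astrocytes Hspb1 (0.75) and C3 (1.66) were higher in females at an adjusted p under 0.05 in edgeR. Both were at low levels over all 64 pups, C3 with a mean of 1.90 CPM (0.359 to 26.2) and Hspb1 of 2.41 CPM (0.188 to 5.12). Among the 10 of radial glia the Notch targets Hes1 (0.53) and Hes5 (1.31) were higher in females, each at an adjusted p under 0.05 in edgeR. Markers of other types passed in both directions. Higher in females were Rbfox3 (0.67), Tubb3 (0.47) and Slc32a1 (0.69) of neurons, Sox10 (0.57) and Olig1 (0.48) of the oligodendrocyte lineage, Cldn5 (0.51) and Slc2a1 (0.27) of endothelium, and Tbr1 (0.96) and Cux2 (0.52) of neocortex. Lower were Pdgfra (-0.22) and Mog (-0.64) of the oligodendrocyte lineage. Treated females are not part of this comparison, and female control libraries were of form A in 5 and of form B in 6 cases. Between these forms, in female controls, Apoe differed by 0.04, Id3 by -0.06 and Cst3 by 0.10 (log2, form B minus form A).

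Between feeding and injection controls none of the 10 genes passed in edgeR, in males (0.013% of all 15387 genes passed) or in females (0% of 16618). At an unadjusted p under 0.05 lay 0 of 10 in each sex, against 0.988% and 4.29% of all. The difference nearest to that level was Slc1a2 in females, with 14.9, 16.9, 26.7, 28.2 and 32.5 CPM in CONF against 10.1, 10.6, 12.2, 17.3 and 27.8 CPM in CONSC. The log2 difference, CONSC minus CONF, was -0.63 ± 0.29 (SE; edgeR, adjusted p = 0.85), and 4 of 5 CONSC females lay under the median of CONF.

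Because Slc1a3 precedes Slc1a2 in development, the ratio of their counts was taken in each pup, which needs no scaling by library size. Without lengths it is a ratio of counts and not of transcripts. Slc1a2 counts were 3.34 ± 1.13% of those of Slc1a3 in male controls (SD, n = 9) and 5.57 ± 2.33% in female controls (SD, n = 10). They were 5.39 ± 1.87% in Aro5 males (SD, n = 6), of which 108-1y had the lowest, 2.33%, and the highest pup had 7.74%. In an exact permutation test on the log2 scale, 2-sided, the ratio of female controls exceeded that of male controls by 0.69 (p = 0.0202, adjusted over 10 comparisons 0.19). With control libraries of form A alone this difference was 0.40 (exact permutation p = 0.21, adjusted 0.779). Aro5 males exceeded male controls by 0.67 (exact permutation p = 0.038, adjusted 0.19). Without 108-1y the value was 0.89 (exact permutation p = 0.004995, adjusted 0.04995). In the other 8 comparisons the adjusted p from the exact permutation test was 0.779 or more. With 4 pups against 9 the smallest p that this test can give is 0.0013986.

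**Figure D4:**
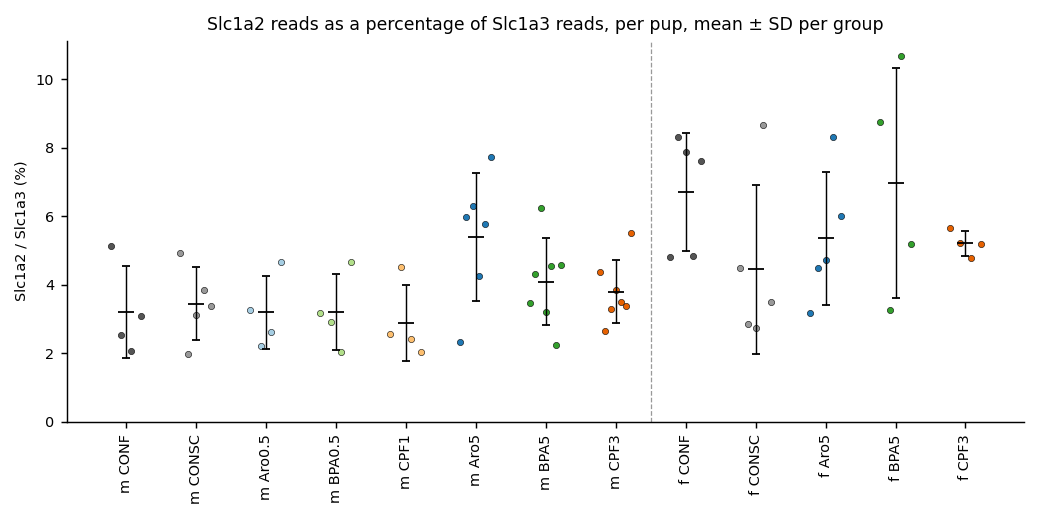
Counts of Slc1a2 as a percentage of those of Slc1a3 in each of the 64 pups by group (vertical axis starting at 0). Points are pups, horizontal lines group means and vertical lines SD. Male controls sit between 1.97% and 5.13%, and female controls between 2.72% and 8.66%.

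How far the 10 genes moved together was measured over the 64 pups after the mean of each group was removed, so that a relation does not stem from differences between group means. Of 45 pairs, 34 had a positive correlation, and the median r was 0.29. By a permutation test with Benjamini-Hochberg adjustment over the 45 pairs, 22 were positive and 1 negative at an adjusted p under 0.05. S100b and Aldoc had r = 0.74 and rho = 0.67 (permutation p = 1e-05, the smallest that 100000 permutations can give, adjusted 7.5e-05). Without the 2 pups farthest from the median it was 0.70, and within males of library form A 0.91 and of form B 0.59. Aqp4 and Slc1a2 had r = 0.73 and rho = 0.68, and Gja1 and Glul r = 0.72 and rho = 0.71, with the same permutation p and adjusted p. S100b and Glul had r = 0.70 and rho = 0.65, again with that p.

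The 10 genes did not form 1 block. Aqp4, Slc1a2, Slc1a3 and Gja1 went with each other, with r = 0.61 for Aqp4 and Slc1a3 and 0.48 for Slc1a2 and Slc1a3. S100b and Aldoc went together. These sets were not separate, since Glul, as given above, went with both S100b and Gja1. Slc1a3 and Aldoc had the negative correlation, r = -0.42 and rho = -0.38 (permutation p = 0.0068, adjusted 0.018), with r = -0.33 without the 2 pups farthest from the median. Of the 22 positive pairs all had a positive r within males, within females, within males of form B and without the 2 farthest pups, and 21 within males of form A. Sox9 and Aldh1l1 were the genes least tied to the rest. The mean of the 10 standardized genes, which contains each of them, had r = 0.29 with Aldh1l1 and 0.34 with Sox9, against 0.86 with Glul.

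**Figure D5:**
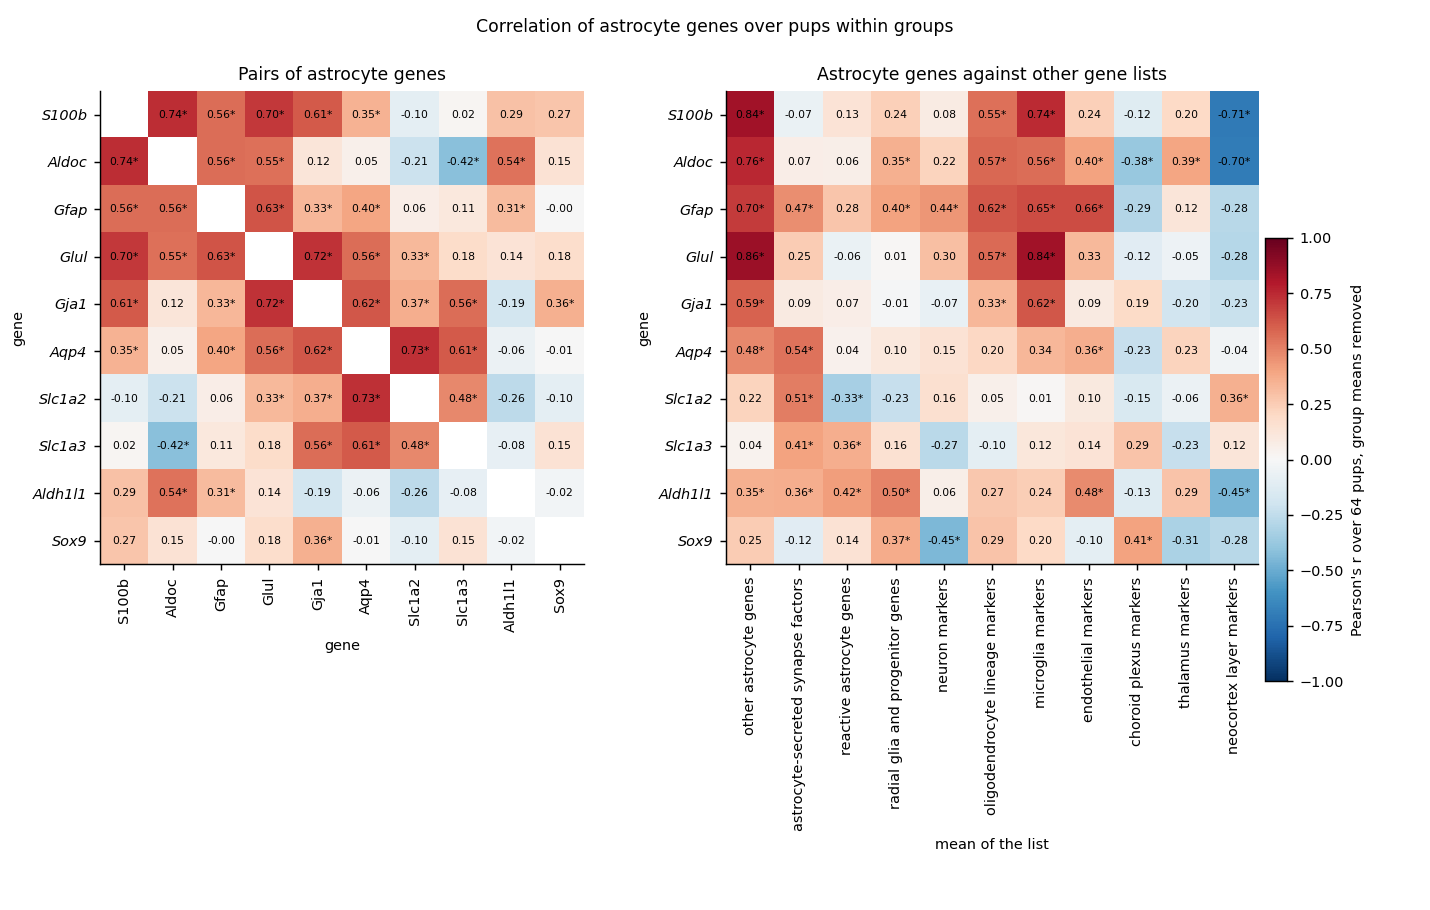
Pearson correlation between the 10 astrocyte genes, and of each of them with the mean level of 11 other gene lists, over 64 pups after removal of group means, on a colour scale from -1 to 1. An asterisk marks an adjusted p under 0.05 in a permutation test. Aqp4, Slc1a2, Slc1a3 and Gja1 correlate with each other, S100b and Aldoc do so with r = 0.74, and both have negative values with markers of neocortical layers.

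The relations of each gene with 11 other lists and with 2 measures of the library, chosen after the data were examined, give what moved beside them. Of 110 relations with lists, 36 were positive and 6 negative at an adjusted p under 0.05 (permutation test, adjusted over the 110). Glul followed the list of 30 other astrocyte genes with r = 0.86 and rho = 0.82, and the microglia markers with r = 0.84 and rho = 0.77 (permutation p = 1e-05 each). S100b and Aldoc had r = -0.71 and r = -0.70 with markers of neocortical layers (rho = -0.68 and -0.75, permutation p = 1e-05 each), whereas Slc1a2 had r = 0.36 with them (rho = 0.34, permutation p = 0.00771, adjusted 0.023). Within males of form A the r of S100b with neocortical markers was -0.83 and within form B -0.58. Markers of neocortical layers thus moved against S100b and Aldoc from pup to pup, and the part of the neocortex in their levels was not tested. Of 20 relations with the time of dissection and total counts none had an adjusted p under 0.05. The strongest was Slc1a2 with time of dissection, r = -0.36 and rho = -0.23 (permutation p = 0.01708, adjusted 0.342; r = -0.29 without the 2 pups farthest in time).

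Of 17357 genes, those whose levels followed the mean of the 10 most closely over the 64 pups, with group means removed, included Mlc1 (r = 0.80), Slc14a1 (0.79), Tril (0.78), Mmd2 (0.77), Sdc4 (0.76), Ttyh1 (0.75), Sfxn5 (0.75), Ndrg2 (0.74) and Tns3 (0.74). Of these, Mlc1 and Ndrg2 were on the list of 30 other astrocyte genes and Ttyh1 on the list of radial glia. Slc14a1 encodes a urea transporter and Sdc4 a membrane proteoglycan. The list of 30 had a median r of 0.44, microglia markers 0.51, the oligodendrocyte lineage 0.45, reactive astrocyte genes 0.06, neocortical markers -0.30 and all genes -0.02. At the other end stood Vash2 (r = -0.86), Aldh1l2 (-0.82) and Ypel1 (-0.81). All libraries share 1 tissue piece per pup, so these values describe what varied together in it and carry no p.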

How the data were processed

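Poly(A) RNA of 64 pups was made into stranded libraries and sequenced by the authors, who deposited raw read counts per gene for each of 66 libraries. Per the labels, reads were aligned to rat build Rnor_6.0 with STAR and counted with featureCounts, and the processing notes also name kallisto. Versions, the strand setting of the counting and the handling of reads that match several places are not given in the sources used here.

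Groups, sex and pup were taken from the labels. The 10 members and all gene lists (11 lists of other astrocyte genes, further cell types and regions, with 143 of 145 listed symbols found over the 12 lists) were chosen with earlier results of these data known. The text names the 10 members in every comparison, the 10 other genes most like their mean, and of each list the genes with an adjusted p under 0.05 (at most 5 a list) or, without any, the 2 most abundant. Lists are given by counts and medians alone in most comparisons, without names, and some genes that the rule names are not reported here. Genes outside this rule, such as Ndrg2 and Mlc1 with CPF3 and Slc39a12 between the sexes, were chosen after their values were seen. Counts of both libraries of a pup (same pup name, for N4-3x with different times) were summed, except in fits that use the form of the library name. There, with form as a covariate, form A controls alone or the forms compared, each library was taken singly. Tests were made in edgeR 4.0.16 (R 4.3.3) with TMM normalization, filterByExpr by group and the quasi-likelihood F test. Benjamini-Hochberg adjustment was over all genes tested, with a threshold of 0.05. Separate fits covered males at high and at low dose, females, the control types within a sex, both sexes with their interaction, and library forms in female controls. SE is the log2 fold change divided by the square root of F. Correlations and likeness used log2 CPM scaled by TMM-normalized library sizes, with a prior count of 0.5 and group means removed. Ratios and correlations were tested by permutation in Python 3.11.15 (numpy 2.4.6, pandas 2.3.3, scipy 1.17.1; plots in matplotlib 3.10.9). The scripts were tested on simulated counts.

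Alternatives were DESeq2 1.42.0, its size factors in edgeR, library totals alone, filters of 1 count in all or 10 counts in every pup, pups dissected from 10.30 to 13.20, controls of the same route, library form as a covariate or form A controls alone, 1 pup per litter and sex, the litter as a block in limma 3.58.1, each pup left out, and, added after seeing the data, CPF3 males without 35-5y and 36-3y. Replicates are pups, of which a few in a group share a litter, so that p-values measure the spread between pups. In the fits that use the form, replicates are libraries. Promoter windows come from RefSeq's table for GRCr8, a build other than that of the counts, and were used for their sequence alone.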

Additional observations from a re-analysis of the deposited data

Results flagged for a closer look

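Of 143 sets of values in 1 group (the 10 genes and the Slc1a2/Slc1a3 ratio in each of 13 groups of 4 to 7 pups), 7, all of single genes, had a pup set far apart from the others of its group by Dixon's criterion, where chance alone gives about 1 in 20. Gfap was at 445 CPM in Aro0.5 male 98-8y, against 216 CPM in the next pup. In CPF1 males Gfap was at 286 CPM in 63-5y against 193 CPM in the next. Aqp4 was at 496 CPM in Aro5 female 117-6x against 365 CPM in the next.

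In the other 4 sets a pup stood apart on the low side. Slc1a3 was at 337 CPM in CONF male N4-7y against 436 CPM in the next, and at 278 CPM in CPF3 male 36-3y against 378 CPM. In CONSC male 10-2y, S100b was at 128 CPM against 193 CPM and Aldoc at 276 CPM against 349 CPM in the next pup. Pups N4-7y and 10-2y are those whose absence took Slc1a3 and Gja1 past the threshold in the comparison of female with male controls.

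Of 30 tests of a difference between the sexes in the response to a chemical (10 genes, 3 chemicals), none had an adjusted p under 0.05 in edgeR, and 2 had an unadjusted p under 0.05.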

How the results depend on the processing

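The count of astrocyte genes past the threshold was 0 in all 19 comparisons. Over 144 alternatives other than leaving out a pup it changed in 2: with pups dissected from 10.30 to 13.20 it was 1 for Aro5 males (Slc1a2), and with library totals alone it was 2 for female against male controls (Slc1a3 and Gja1). Over 308 fits with 1 pup left out it changed in 2, both for female against male controls, where it ran from 0 to 1. The causes were not tested. In the Aro5 comparison the time window leaves out Aro5 males 108-1y and 117-4y and CONSC males 10-2y, 13-1y and 6-5y, and no single pup left out gave a call (smallest adjusted p for Slc1a2 0.0561).

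Differences in the Slc1a2/Slc1a3 ratio near 0 changed sign: Aro0.5 males to 0.10 in that time window and 0.020 with controls of the same route, BPA0.5 males to 0.018 and BPA5 females to -0.046 with controls of the same route. With 1 pup left out, the ratio ran from -0.25 to 0.10 in Aro0.5 males, -0.26 to 0.15 in BPA0.5 males, -0.19 to 0.16 in Aro5 females, -0.077 to 0.11 in CPF3 females and 0.55 to 0.89 in Aro5 males, where 0.89 passed in the exact permutation test. Of 168 alternatives for ratios 1 passed. Of the 10 genes most like the mean of the members, 5 were among the first 10 in males alone and 1 in females alone, while 10 and 9 were among the first 100.

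Replicate codes of pups name litters. The litter as a block could not be fitted in high-dose males or in females, where 1 litter gave 2 pups. In the fit of both sexes, where 18 litters gave several, the correlation within litters was -0.0061, and with this replicate block 0 of 10 genes passed in female against male controls and in each interaction. No other pairing links the groups. Each gene had 86 counts or more in every pup, and the part of counting error in the spread was not tested.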

Other observations

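Choroid plexus markers, genes of the epithelium that makes cerebrospinal fluid, lay below controls in several groups, although none of the 9 measured passed the test in any comparison with controls (edgeR, adjusted p under 0.05). All 9 had negative log2 fold changes in Aro0.5, BPA5 and CPF3 males and in Aro5 and BPA5 females, with medians of -0.49, -0.19 and -0.30 in males and -0.31 and -0.54 in females. In CPF3 females 5 of 9 were positive, with a median of 0.02. These comparisons share control pups.

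Markers of neocortical layers and of the thalamus gave opposite medians in Aroclor 1254 males. In Aro5 males all 8 neocortical markers were positive (median 0.41) and 6 of 8 thalamic markers negative (median -0.36). In Aro0.5 males 7 of 8 neocortical markers were negative (median -0.47) and 7 of 8 thalamic markers positive (median 0.56). None of these markers passed the test in either group.

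For 2 control pups 2 libraries were deposited. For female CONF pup N4-3x, the ratio of CPM between its libraries lay between 0.961 for Slc1a3 and 1.15 for Slc1a2. For male CONF pup N2-2y it lay between 0.786 for Slc1a2 and 1.27 for Gfap and Aldoc.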
